A study of Homo sapiens with 10 samples.

Results

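The 31 genes described here are a named set of G2/M and mitosis genes: the cyclins and kinases that carry a cell from G2 into mitosis, and the motors, kinetochore proteins and ubiquitin ligase factors that divide it. They were taken by gene symbol from the platform annotation, and each was represented by its brightest probe. The list was chosen with earlier results of these data known. All 31 were measured, out of 17752 genes tested. The RNA was from NCI-H441 cells, a line established from a human lung adenocarcinoma, taken 12 h after 1 µM CLEFMA in DMSO (treated, 5 arrays) or after DMSO alone (control, 5 arrays); both groups received 0.1% DMSO in medium with fetal bovine serum, and the series title names CLEFMA as a selective inducer of necrosis acting through oxidative stress. Illumina HumanWG-6 bead arrays measured each sample. Titles number 5 replicates a group while the protocols speak of fewer wells and fewer biological replicates, so some arrays may share a culture, and the p-values speak for the scatter of these arrays, part of which may be technical.

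Cyclin A and cyclin B with their partner CDK1 drive entry into mitosis, and the kinases PLK1 and the Aurora family build the spindle and time the steps that follow. Destruction of securin and the cyclins by the anaphase-promoting complex with its coactivator CDC20 then separates the chromosomes and ends mitosis. Transcripts of these genes are low in G1 and high in G2 and M in cycling cells. Their promoters are known for a pair of elements, CCAAT boxes bound by the factor NF-Y and the cell cycle genes homology region (CHR), which the MuvB core holds in repressing complexes in resting cells and in activating complexes with B-MYB and FOXM1 in G2. In whole-culture RNA such as this, fewer cells in G2 or M and less of the transcript per cell cannot be told apart.

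The promoters showed what the genes share beyond their names. RefSeq start-site windows of 300 bases (250 before and 50 after each start, GRCh38.p14) were given for 26 of the 31 members, in 32 windows. AURKA, TTK, UBE2C, TPX2 and BIRC5 had none in that table. Below are the 250 bases before the start for 4 members, 5′ to 3′ on the gene's strand, with CHR letters (TTTGAA or TTCGAA, either strand) and CCAAT letters (either strand) in capitals. CCNB2 and PLK1 are shown for their plain order of CCAAT boxes upstream of 1 CHR, CDC20 because it had the largest difference between the groups, and DLGAP5 because it had the smallest p. The CCNB2 stretch is chr15:59104896-59105145 (plus strand), that of PLK1 chr16:23678639-23678888 (plus), that of CDC20 chr1:43358731-43358980 (plus) and that of DLGAP5 chr14:55191586-55191835 (minus).
CCNB2: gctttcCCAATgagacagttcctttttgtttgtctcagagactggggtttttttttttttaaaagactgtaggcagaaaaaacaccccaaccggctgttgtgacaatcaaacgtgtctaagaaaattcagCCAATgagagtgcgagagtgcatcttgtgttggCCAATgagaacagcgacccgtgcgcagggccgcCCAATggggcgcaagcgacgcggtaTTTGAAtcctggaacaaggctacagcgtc
PLK1: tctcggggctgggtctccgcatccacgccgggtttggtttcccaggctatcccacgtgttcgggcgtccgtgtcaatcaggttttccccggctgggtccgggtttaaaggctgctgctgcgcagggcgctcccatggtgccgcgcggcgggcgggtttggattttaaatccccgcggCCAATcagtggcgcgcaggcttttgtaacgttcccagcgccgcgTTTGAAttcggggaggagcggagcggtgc
CDC20: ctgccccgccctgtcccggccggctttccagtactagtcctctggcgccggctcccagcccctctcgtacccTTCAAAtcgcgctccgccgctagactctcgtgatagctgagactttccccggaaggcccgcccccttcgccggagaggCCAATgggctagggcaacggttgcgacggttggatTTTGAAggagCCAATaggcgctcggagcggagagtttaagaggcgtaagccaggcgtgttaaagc
DLGAP5: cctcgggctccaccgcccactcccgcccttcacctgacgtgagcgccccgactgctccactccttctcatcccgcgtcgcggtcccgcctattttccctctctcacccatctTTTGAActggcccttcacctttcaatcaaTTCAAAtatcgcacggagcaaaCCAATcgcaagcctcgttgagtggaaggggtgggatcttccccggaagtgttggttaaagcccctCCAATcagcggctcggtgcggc

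In both CCNB2 and PLK1 the CHR began 29 bases before the start. CCNB2 had 4 CCAAT boxes before it, the nearest 54 bases before the start, and PLK1 had 1, at 73 bases. In CDC20 a CHR began 65 bases before the start and lay between CCAAT boxes at 100 and 55 bases, and a further CHR match stood at 178 bases on the other strand. DLGAP5 carried CHR letters at 138 and 109 bases and CCAAT boxes at 87 and 22 bases before the start, and another CHR match just after the start, past the printed stretch. Over the 26 members with a window, 18 (69.2%) held a CHR, against 17.6% of the 14102 tested genes with a window. A CCAAT box stood in 23 members (88.5%), against 42.7% of those genes, and both motifs shared 1 window in 17 members (65.4%), against 7.47%. The motifs can share a base, which happened in 1 pair of matches, in MKI67. A match describes these letters only, not a bound site. No CHR letters were found in the windows of AURKB, CCNA2, CCNB1, CENPE, KIF20A, KIF2C, NEK2 and PTTG1, of which CENPE and KIF2C also held no CCAAT box. Only TTTGAA and TTCGAA were searched as CHR letters, so their absence does not show that a gene lacks a CHR. The 17 members with both motifs in 1 window had a median log2 difference of −0.10 (treated minus control, range −0.23 to 0.30). The 9 without had a median of −0.004 (range −0.13 to 0.29), and the 5 members with no window −0.08. Single arrays also set the 17 and the 9 apart. Their median deviations from the other controls were 0.41 and 0.29 on control 5, and −0.26 and −0.19 on control 3. The ranges overlapped, and this is a description, with no test.

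**Figure D1:**
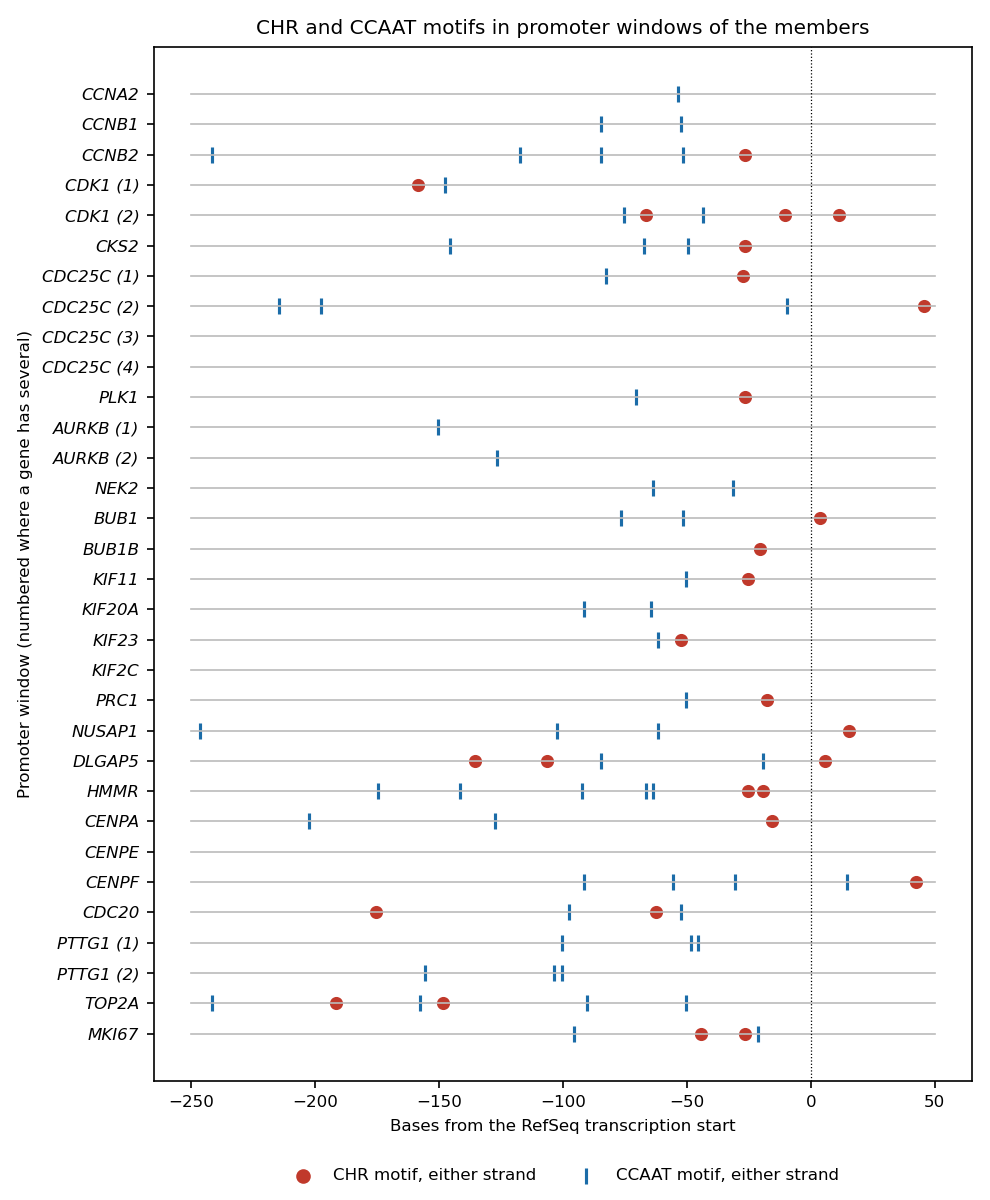
Positions of CHR motifs (red circles) and CCAAT motifs (blue ticks), on either strand, along 32 promoter windows of 26 members; the horizontal axis gives bases from the RefSeq transcription start, and genes with several windows are numbered. Of 87 matches 66 begin within 150 bases before the start, and the windows of CENPE and KIF2C and 2 of the CDC25C windows hold none. Matches are counted per window, so sites in overlapping windows of AURKB, CDC25C and PTTG1 are counted more than once.

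None of the 31 members passed the test between treated and control cells. Over all genes tested 53 passed limma at an adjusted p under 0.05, or 0.299% (47 higher, 0.265%, and 6 lower, 0.0338%), so a count of 0 among 31 genes is near that background. At an unadjusted p under 0.05, 1 member was lower, DLGAP5, and 0 were higher, where 8.96% of all genes passed (4.48% in each direction). That split turned with the arrays: without both arrays numbered 5, CDC25C, PLK1, KIF2C and BIRC5 were higher at that level and 0 members lower, and without control 5 alone KIF2C and BIRC5 were higher and 0 lower, so DLGAP5 was not among them. The values of treated and control arrays overlapped for each of the 31 members on its brightest probe; over all genes they did not overlap for 2.50% (1.46% higher and 1.04% lower). The members' log2 differences ran from −0.24 for TPX2 to 0.30 for CDC20, with a median of −0.06 over members and 0.01 over all genes tested. Of the 31 differences 22 were negative (71.0%), against 48.5% over all genes. Limma adjusted p-values of the members were 0.531 or higher.

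All 31 members were above background, a deposited log10 value above 0.2, on all 10 arrays. Standard errors of the members' log2 differences ran from 0.08 to 0.27, with a median of 0.12, where the median over all genes was 0.13. The 95% limma interval lay within 1 log2 unit (a 2-fold change) of no difference for all 31 members, and within 0.5 for 27 of them (87.1%), against 69.1% of all genes. Under other settings the highest limit passed 1: it was 1.01 on the deposited values as they are, where 20 members lay within 0.5, up to 1.05 with 1 array left out, and 1.20 without both arrays numbered 5. Intervals of KIF2C, BIRC5, CDC20 and PTTG1 reached past 0.5 on the higher side, and that of CDC20 the furthest, to 1.85-fold higher. Without control 3 the highest limit of any member was 0.46, so none reached past 0.5 on that side. These intervals hold for 1 gene at a time and are not adjusted for the number of genes.

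**Figure D2:**
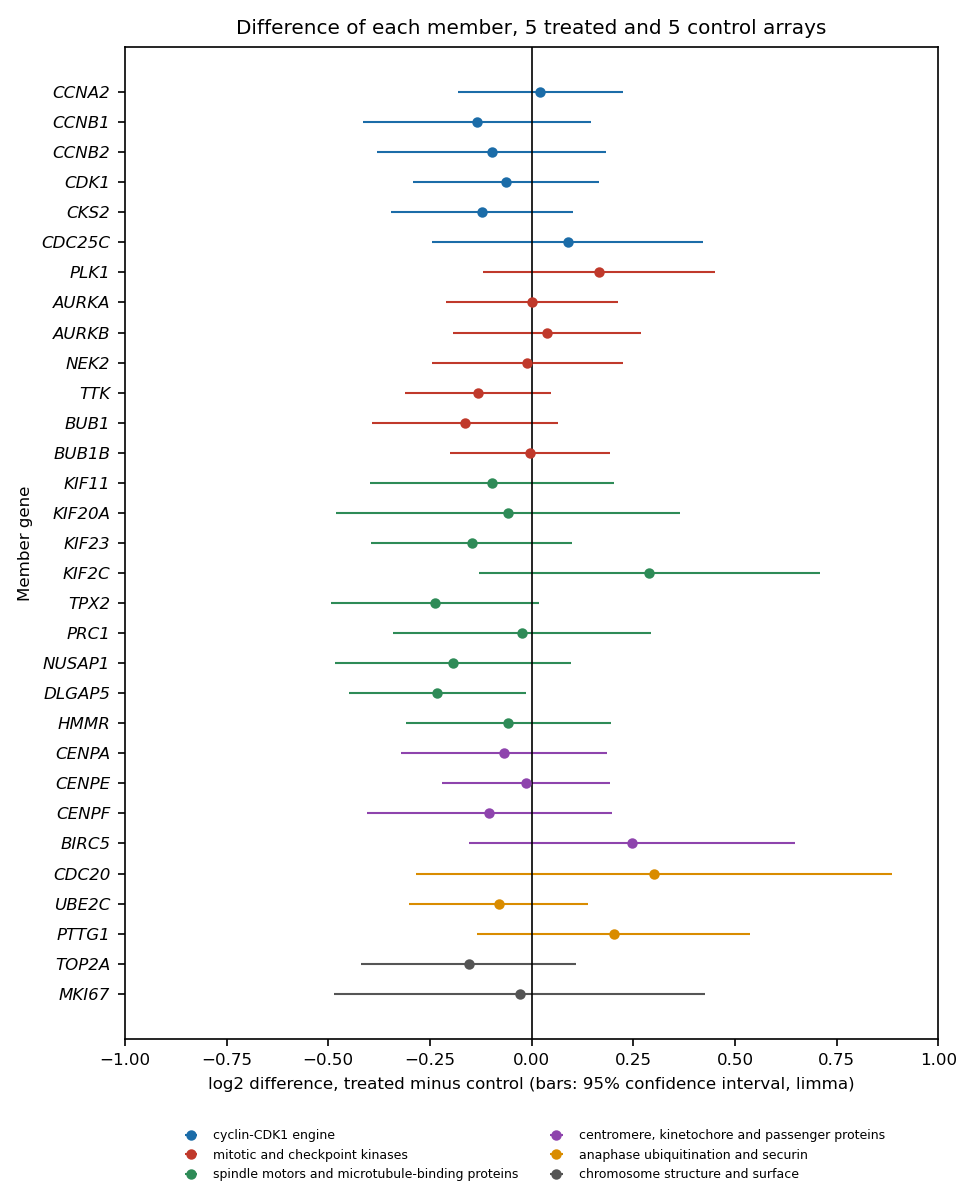
Log2 difference (treated minus control) of each of the 31 members with its 95% confidence interval from limma, over 5 treated and 5 control arrays, coloured by role. All intervals lie within −1 and 1 and only that of DLGAP5 leaves out 0; the interval of CDC20 is the widest.

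The engine of mitotic entry came first in the order of roles. CCNB1, the cyclin B that activates CDK1 at mitotic entry, had log2 levels of 7.14, 6.78, 6.89, 6.90 and 6.93 on treated arrays 1 to 5, against 7.001, 6.99, 7.50, 6.77 and 7.05 on control arrays 1 to 5. The groups overlapped, and control 3 was the highest array of all. CCNB1 differed by −0.13 ± 0.13 (SE, n = 5 per group, limma adjusted p = 0.748), and by −0.03 without control 3. CCNB2, the second mitotic cyclin B, had levels of 8.56, 8.51, 8.61, 8.56 and 8.21 on treated arrays 1 to 5, against 8.62, 8.67, 8.22, 8.51 and 8.92 on control arrays 1 to 5. Its lowest arrays were treated 5 and control 3 and its highest was control 5, with a difference of −0.10 ± 0.13. CDK1, the kinase itself, differed by −0.06 ± 0.10 with a 95% interval of −0.29 to 0.17. CCNA2, cyclin A, which acts in S and G2, differed by 0.02 ± 0.09, and CKS2, a small subunit of the CDK complex, by −0.12 ± 0.10. CDC25C, the phosphatase that removes the inhibitory phosphates from CDK1, differed by 0.09 ± 0.15. Of these 6 genes 2 had positive and 4 negative differences, and the median was −0.08.

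Among the kinases of mitosis and its checkpoint, PLK1 had log2 levels of 5.90, 6.27, 5.97, 6.18 and 5.84 on treated arrays 1 to 5, against 5.93, 5.95, 5.61, 5.64 and 6.20 on control arrays 1 to 5. Treated 2 and 4 and control 5 were high and the groups overlapped throughout. PLK1 differed by 0.17 ± 0.13 (limma adjusted p = 0.704). AURKA, which matures centrosomes and the spindle poles, differed by 0.001 ± 0.10 (95% interval −0.21 to 0.21), and AURKB, the kinase of the chromosomal passenger complex, by 0.04 ± 0.11. NEK2, which splits centrosomes, differed by −0.01 ± 0.11. TTK, BUB1 and BUB1B hold the spindle checkpoint on until all chromosomes are attached. TTK differed by −0.13 ± 0.08, BUB1 by −0.16 ± 0.10 and BUB1B by −0.004 ± 0.09. TTK had the smallest standard error of all members, and its interval ran from −0.31 to 0.05.

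The 9 spindle motors and microtubule-binding proteins had 8 negative differences and a median of −0.10. DLGAP5, a spindle protein that stabilises kinetochore fibres, had log2 levels of 7.84, 7.50, 7.72, 7.79 and 7.76 on treated arrays 1 to 5, against 8.05, 7.91, 7.89, 7.78 and 8.15 on control arrays 1 to 5. Treated 2 was the lowest array and control 5 the highest, and treated 1, the highest treated array, stood above control 4. DLGAP5 differed by −0.23 ± 0.10 (unadjusted p = 0.038, limma adjusted p = 0.531), an interval of −0.45 to −0.02. TPX2, which activates AURKA on spindle microtubules, had levels of 7.49, 7.41, 7.39, 7.55 and 7.18 on treated arrays 1 to 5, against 7.39, 7.55, 7.81, 7.53 and 7.92 on control arrays 1 to 5. Treated 5 was lowest and controls 3 and 5 were highest; the difference was −0.24 ± 0.12 (limma adjusted p = 0.578). NUSAP1, a microtubule-bundling protein, differed by −0.19 ± 0.13. KIF2C, a kinesin that takes apart microtubule ends, was the 1 positive member of this group. Its levels were 7.06, 7.25, 7.16, 7.26 and 6.97 on treated arrays 1 to 5, against 6.92, 6.98, 6.09, 6.87 and 7.40 on control arrays 1 to 5. Control 3 was 0.96 below the mean of the other controls, and the difference of 0.29 ± 0.19 over all arrays was 0.10 without it. KIF11, the kinesin that pushes the spindle poles apart, differed by −0.10 ± 0.14. KIF20A and KIF23, kinesins of the central spindle and cytokinesis, differed by −0.06 ± 0.19 and −0.15 ± 0.11. PRC1, which crosslinks the central spindle, differed by −0.02 ± 0.15, and HMMR, a spindle pole protein, by −0.06 ± 0.12.

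At the centromere and kinetochore, CENPA, the histone H3 variant of centromeres, differed by −0.07 ± 0.12, CENPE, a kinetochore motor, by −0.01 ± 0.09 and CENPF, a large kinetochore protein, by −0.10 ± 0.14. BIRC5, which encodes survivin of the passenger complex, had log2 levels of 7.23, 7.31, 7.32, 7.23 and 6.79 on treated arrays 1 to 5, against 6.95, 7.03, 6.29, 6.94 and 7.44 on control arrays 1 to 5. Treated 5 was the lowest treated array and control 3 the lowest control. Its difference of 0.25 ± 0.18 was 0.09 without control 3.

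CDC20, the coactivator that turns on the anaphase-promoting complex, had log2 levels of 9.84, 9.87, 9.93, 9.98 and 9.67 on treated arrays 1 to 5, against 9.67, 9.87, 8.35, 9.74 and 10.16 on control arrays 1 to 5. All but 1 of the 10 arrays lay between 9.67 and 10.16, and control 3 stood 1.51 below the mean of the other controls. The difference of 0.30 ± 0.27 (limma adjusted p = 0.730), the largest of the 31 in size, was −0.001 without control 3. PTTG1, securin, the protein whose destruction frees separase, had levels of 9.32, 9.53, 9.50, 9.32 and 9.22 on treated arrays 1 to 5, against 9.36, 9.24, 8.58, 9.21 and 9.50 on control arrays 1 to 5. Control 3 was again the lowest, and the difference of 0.20 ± 0.15 was 0.05 without it. UBE2C, the ubiquitin-conjugating enzyme of the same complex, differed by −0.08 ± 0.10. Of the chromosome proteins, TOP2A, the topoisomerase that untangles sister DNA, differed by −0.15 ± 0.12. MKI67, the Ki-67 protein that coats mitotic chromosomes, had levels of 3.51, 3.40, 3.51, 3.22 and 3.36 on treated arrays 1 to 5, against 2.61, 3.45, 3.32, 3.78 and 3.99 on control arrays 1 to 5. Control 1 was the lowest array and control 5 the highest, with a difference of −0.03 ± 0.21. These are low levels on the arrays' scale, where the offset added before the logarithm narrows differences.

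Levels of the set varied more between arrays of 1 group than between the group means. The mean log2 level over the 31 members was 7.55 ± 0.08 in treated cells and 7.58 ± 0.16 in control cells (SD, n = 5 each). Treated 5 had the lowest treated mean, 7.41, where the other treated arrays lay between 7.56 and 7.62. Control 5 had the highest control mean, 7.83, and control 3 the lowest, 7.41, with the other controls between 7.51 and 7.59. Treated 5 was the lowest treated array for 21 of 31 members (67.7%), against 22.8% of all genes. Control 5 was the highest control for 22 members (71.0%), against 22.8% of all genes, and 8 members were more than 0.5 log2 above the mean of the other controls on it, where 8.07% of all genes were off by as much in either direction. Those 8 were CDC25C, KIF20A, KIF2C, KIF23, PRC1, BIRC5, CDC20 and MKI67. Without both arrays numbered 5, the median difference of the members was 0.03, with 18 of 31 positive, against −0.06 with 9 of 31 positive over all arrays. The sign of the median therefore turned with those arrays, and it was −0.001 without control 5 alone and −0.01 without treated 5 alone. The replicate numbers are those of the titles, and no source used here tells whether arrays numbered 5 share a slide, culture or scan.

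**Figure D3:**
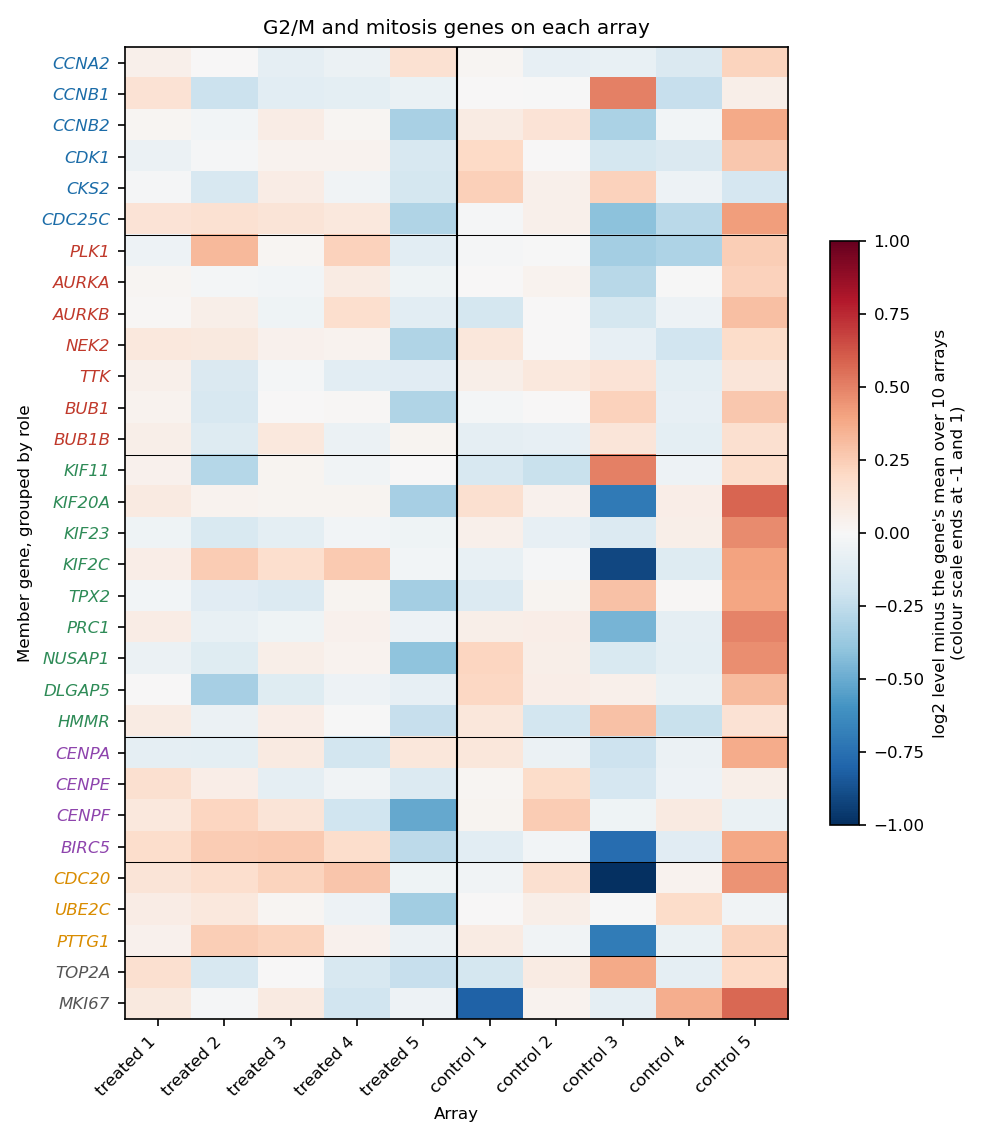
Log2 level of each member on each array minus that gene's mean over all 10 arrays (red higher, blue lower, colour scale ending at −1 and 1), with treated arrays 1 to 5 left of control arrays 1 to 5 and genes grouped by role. Most members are blue on treated 5 and red on control 5, and control 3 is blue for CDC20, KIF2C, KIF20A, BIRC5, PTTG1 and PRC1 but red for CCNB1 and KIF11.

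Control 3 correlated least with the other arrays over all probes kept (mean r 0.978, against 0.986 to 0.990), and 8 of 31 members (25.8%) lay more than 0.5 log2 from the mean of the other controls on it, a share near the 24.0% of all genes. CDC20 (−1.51), KIF2C (−0.96), KIF20A (−0.92), BIRC5 (−0.80), PTTG1 (−0.75) and PRC1 (−0.60) were lower there, and KIF11 (0.57) and CCNB1 (0.54) were higher. Control 3 was the lowest control for 15 members (48.4%), against 30.4% of all genes, and the highest for 5 (16.1%), against 27.7%. The median deviation of the members on it was −0.19, against −0.03 over all genes. Without control 3 the members' differences ran from −0.26 to 0.10, in place of −0.24 to 0.30, and 0 of 31 passed. The part of RNA quality or of slides in these deviations was not tested.

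**Figure D4:**
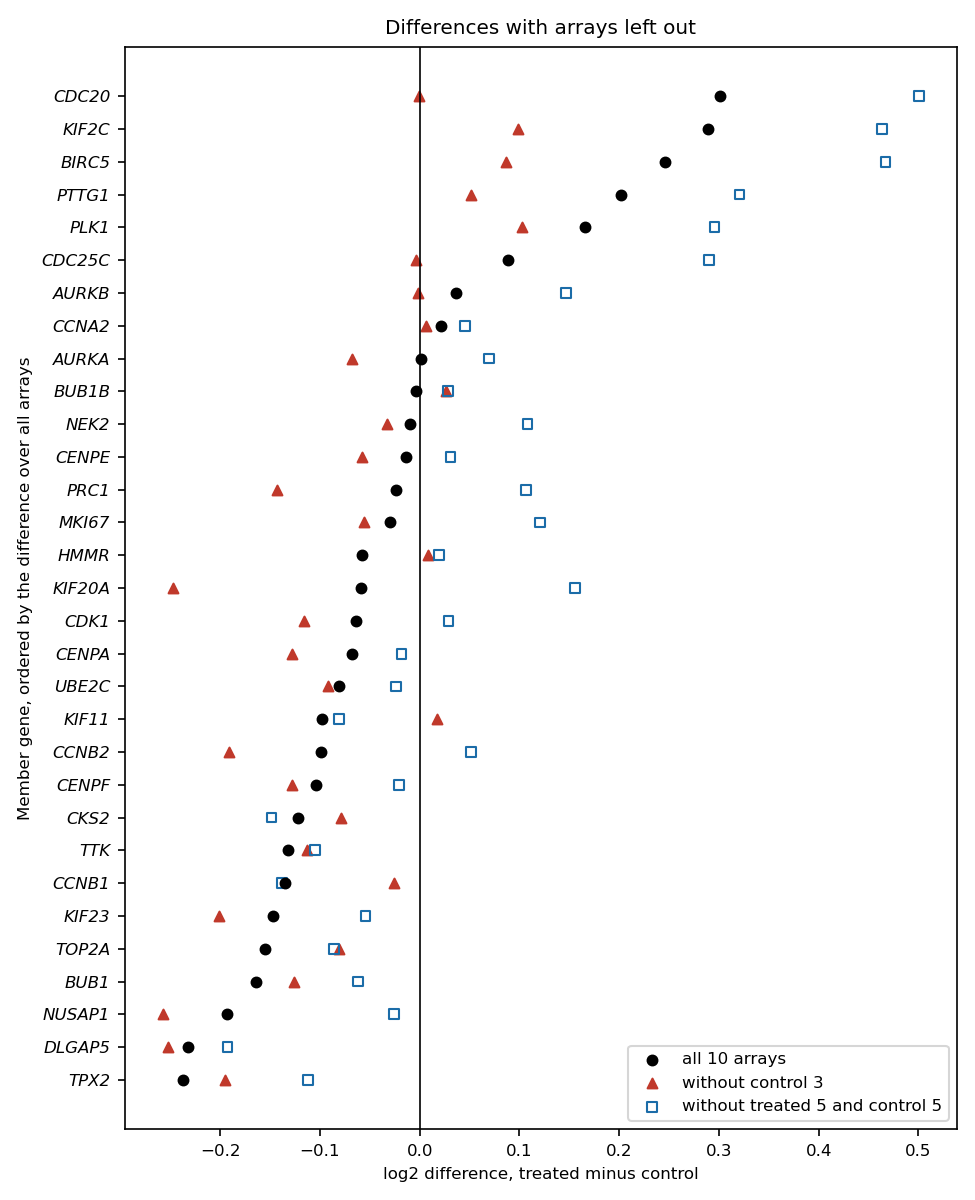
Log2 difference (treated minus control) of each member over all 10 arrays (black circles), without control 3 (red triangles) and without treated 5 and control 5 (open blue squares), with genes ordered by the first of these. CDC20, KIF2C, BIRC5 and PTTG1 lie between −0.001 and 0.10 without control 3, and most members lie further to the right without the arrays numbered 5.

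For 14 members a further 15 probes were on the arrays. Of these 15 log2 differences 9 had the sign of the brightest probe, and 12 lay within 0.2 of it. None of the 15 passed limma over all 44606 probes tested, where 0.150% passed, and 2 had an unadjusted p under 0.05, where 7.69% of probes did. One was a dim KIF23 probe. It had log2 levels of 2.68, 2.11, 2.26, 2.40 and 1.93 on treated arrays 1 to 5, against 2.93, 2.80, 3.27, 2.67 and 3.23 on control arrays 1 to 5. That probe was above background on 3 of 5 treated and 5 of 5 control arrays and its highest treated value exceeded its lowest control value, so the groups met at their edges. It differed by −0.70 ± 0.16 (limma adjusted p = 0.221 over probes), where the bright KIF23 probe differed by −0.15. The other was a second NUSAP1 probe, at 7.28, 7.03, 7.29, 7.23 and 6.93 on treated arrays 1 to 5, against 7.41, 7.30, 7.53, 7.38 and 7.69 on control arrays 1 to 5. These groups did not overlap, as for 2.50% of all genes on their brightest probe. The share over all probes was not counted. The difference was −0.31 ± 0.10 (limma adjusted p = 0.521 over probes). On control 3, 11 of the 15 further probes deviated in the direction of their gene's brightest probe, and 4 in the opposite direction. Those 4 included probes of HMMR and CKS2. The HMMR probes stood 0.33 above and 0.44 below the other controls there, and those of CKS2 0.21 above and 0.19 below.

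The wider machinery was read from lists of related genes, none of which had a member that passed. Of 15 regulators of G2/M transcription, 2 were lower and 0 higher, taken at an unadjusted p under 0.05, with a median log2 difference of −0.13; over all genes 4.48% were lower and 4.48% higher at that level. FOXM1, the activator of many genes in this set, had levels of 6.47, 6.37, 6.39, 6.34 and 6.42 on treated arrays 1 to 5, against 6.25, 6.59, 7.15, 6.65 and 6.86 on control arrays 1 to 5. Control 1 lay below all treated arrays and the other controls above them, with a difference of −0.30 ± 0.14 (limma adjusted p = 0.567). MYBL2, which encodes B-MYB, differed by −0.22 ± 0.11 on a dim probe, with mean log2 levels of 2.71 in treated and 2.92 in control cells. RBL2, the p130 protein of the repressing complex, differed by −0.26 ± 0.08 (limma adjusted p = 0.400), and its groups did not overlap, as for 2.50% of all genes. NFYA, the subunit of NF-Y that binds CCAAT boxes, differed by −0.36 ± 0.13 (limma adjusted p = 0.449).

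A list of 14 genes covered the G2 checkpoint and the control of mitotic entry, and held brakes as well as the phosphatases CDC25A and CDC25B. Of these 14 genes, 0 passed in either direction at an unadjusted p under 0.05, and the median was −0.002. WEE1, the kinase that inhibits CDK1, differed by 0.09 ± 0.10, CDKN1A, the CDK inhibitor p21, by 0.05 ± 0.20, GADD45A, a stress-induced inhibitor of CDK1, by −0.04 ± 0.10 and the checkpoint kinase CHEK1 by 0.12 ± 0.09. ATR, its upstream kinase, was above background on 0 treated and 2 control arrays and has no measured fold here. Of 18 genes for the anaphase-promoting complex, its regulators and factors of mitotic exit, 1 was higher and 1 lower at that level. CDC26, a small subunit, differed by 0.29 ± 0.09 with groups that did not overlap, as for 2.50% of all genes. The phosphatase gene CDC14A differed by −0.38 ± 0.16. Limma adjusted p-values were 0.368 for CDC26 and 0.514 for CDC14A. The CDC14A probe was dim, above background on 4 treated and 5 control arrays, and control 3 stood 0.55 above the other controls for it.

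In the rest of the mitotic machinery, among 24 kinetochore and checkpoint genes 0 passed in either direction at an unadjusted p under 0.05, and CENPM and SGO2, the most different by p, differed by 0.43 ± 0.21 and −0.46 ± 0.22. Control 3 stood 0.96 below the other controls for CENPM and 1.18 above them for SGO2. Among 25 other spindle and cytokinesis genes 3 were lower and 0 higher at that level, where 4.48% of all genes were lower, with a median of −0.09. They included the chromokinesin KIF4A at −0.31 ± 0.10 and the cytokinesis scaffold ANLN at −0.49 ± 0.19 (limma adjusted p-values 0.430 and 0.483), and control 3 stood 1.02 above the other controls for ANLN. Of 16 condensin and cohesin genes tested 14 had negative differences (48.5% over all genes), with a median of −0.18, and 1 was lower at that level. Control 3 stood high for this list, at a mean deviation of 0.26, where the other controls lay between −0.04 and 0.14. STAG2, a cohesin subunit singled out after its values were seen, stood 1.49 above the other controls there, and SMC4 stood 0.46 above. The gene that was lower was SMC4, a condensin subunit, with a difference of −0.28 ± 0.12. Its groups did not overlap, as for 2.50% of all genes. NCAPG, another condensin subunit, differed by −0.22 ± 0.11. The 17 genes of DNA replication and the G1/S step had a median of 0.14 with 13 positive differences, none of them at an unadjusted p under 0.05. GINS2 and CDC45, parts of the replicative helicase, differed by 0.37 ± 0.18 and 0.34 ± 0.17. For them control 3 stood 0.71 and 0.72 below the other controls, and control 5 stood 0.65 and 0.69 above the other controls. No test of the difference between these lists was made.

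Markers of the cells themselves were read beside these values. All 8 lung epithelial markers were above background on all arrays. The log2 of their summed linear levels was 13.38 to 13.64 on treated arrays and 13.66 to 13.78 on controls. These ranges did not overlap, and none of the 8 passed. The share of 2.50% without overlap is for single genes, and no such share was counted for sums of genes. Of 6 fibroblast markers measured, 3 were above background on all arrays (COL1A1, LUM and DCN) and COL3A1 on none. The log2 of the 6 summed levels was 7.55 to 7.91 in treated and 7.44 to 8.29 in control cells. Of 6 leukocyte markers measured, CD14, LYZ and CD68 were above background on all arrays and ITGAM on none. For these 6 the log2 of summed levels was 8.31 to 8.77 in treated and 8.38 to 8.98 in control cells. The part of these cell markers in the members' values was not tested.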

How the data were processed

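The authors' deposited table holds log10 values for 48803 probes on 10 arrays. The base was inferred from their range and not from a stated method: the highest value, 3.79, is 6110 units as a power of 10, where powers of 2 or e would give 13.8 or 44.1 units, too few for a bead array. If the base were another, all log2 differences would change with it. No source used here names the software or normalization. Another deposited table has 10 columns that match no sample and was not used. Values were made linear, an offset of 3 units was added, and log2 values were quantile normalized. Probes with a mean above the 25th percentile of all values (1.59) were kept (44606). Symbols came from the platform annotation, updated by Entrez identifier (27541 of 27578 probes with 1 symbol); 13 probes had several symbols and were not named. The brightest probe stood for each of 17752 genes. Treated and control arrays were set against each other in a limma model (version 3.58.1, R 4.3.3, moderated by eBayes, without covariates). P-values are two-sided and Benjamini-Hochberg adjusted across the whole gene table, and a gene passed below 0.05. The number of arrays limits precision. Log2 differences understate changes of dim genes. Promoter sequences are RefSeq's. Figures were drawn with matplotlib.

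The members, the lists and the alternatives were chosen with earlier results of these data known. Named genes are all members; in each related list the genes that passed and, where fewer than 2 passed, the 2 with the smallest p; and FOXM1, MYBL2, WEE1, CDKN1A and GADD45A. Alternatives covered the offset, normalization, filter, probe rule, variance model, array weights, replicate block and arrays left out.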

Additional observations from a re-analysis of the deposited data

Results flagged for a closer look

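For each member and for the members' mean, the 5 values of a group were searched for an array whose gap to its nearest neighbour, over the range of the group, exceeded Dixon's 95% critical value of 0.71. This held in 7 of 64 sets (10.9%), where chance flags about 5% of independent sets; members share arrays and are not independent. On treated 5 the log2 levels were low for CCNB2 (8.21, others 8.51 to 8.61), CDC25C (5.25, others 5.65 to 5.70), NEK2 (8.35, others 8.68 to 8.76), KIF20A (7.43, others 7.79 to 7.86) and BIRC5 (6.79, others 7.23 to 7.32). KIF11 was low on treated 2, at 6.75 against 6.998 to 7.080 on the other treated arrays. CDC20 was low on control 3, at 8.35 against 9.67 to 10.16 on the other controls.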

How the results depend on the processing

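None of the 31 members passed under any of 22 alternatives, and the lowest limma adjusted p of any member was 0.256, for KIF23 as a mean over its probes. The members' median difference of −0.06 ran from −0.10 under median scaling to 0.03 without both arrays numbered 5, an alternative chosen after seeing the data, and from −0.08 to −0.001 with 1 array left out. Scaling by the median moved the median of all genes by less than 0.1, to −0.03. The count of genes that passed, 53, was 27 on the deposited values as they are and 87 with array weights, and ran from 28 (without treated 3) to 49 (without control 5) with 1 array left out; the cause was not tested. With the replicate block 45 genes passed and 0 members. Same-numbered arrays did not deviate together throughout (correlations −0.09 to 0.25), and 3 of 5 treated arrays correlated best with the control of their own number. The value of 0.25 was for the arrays numbered 5, where the highest correlation of treated 5 with another control was 0.04. Whether the numbers mark pairs is not known, and the main model did not pair the arrays.

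Signs were kept in all alternatives for 14 members. The other 17 crossed 0 under at least 1 alternative. With the setting “median scaling” these were CCNA2 −0.0052 and AURKA −0.024. With the setting “mean over the probes of a gene” these were AURKA −0.0024, HMMR 0.021 and CENPE 0.019. With the setting “array weights” these were AURKA −0.037, NEK2 0.036, BUB1B 0.049, KIF11 0.026 and HMMR 0.065. With the setting “without control 3 and treated 5” these were CCNA2 −0.028, AURKA −0.056, NEK2 0.042, BUB1B 0.020, KIF11 0.0035 and HMMR 0.057. With the setting “without both arrays numbered 5” these were CCNB2 0.052, CDK1 0.029, NEK2 0.11, BUB1B 0.028, KIF20A 0.16, PRC1 0.11, HMMR 0.020, CENPE 0.031 and MKI67 0.12. With 1 array left out, differences ran for CCNA2 from −0.013 to 0.080, CDC25C from −0.0036 to 0.20, AURKA from −0.068 to 0.058, AURKB from −0.0014 to 0.12, NEK2 from −0.058 to 0.064, BUB1B from −0.030 to 0.035, KIF11 from −0.17 to 0.017, KIF20A from −0.25 to 0.080, PRC1 from −0.14 to 0.097, HMMR from −0.12 to 0.0081, CENPA from −0.13 to 0.018, CENPE from −0.058 to 0.031, CENPF from −0.17 to 0.0097, CDC20 from −0.0011 to 0.45 and MKI67 from −0.24 to 0.11.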

Other observations

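Genes of the G1/S step were high on both arrays numbered 5. Members of every role were on average low on treated 5 and high on control 5. As deviations from each gene's mean over the 10 arrays, the 17 DNA replication and G1/S genes were at 0.28 on treated 5 and 0.40 on control 5, and between −0.02 and 0.03 on the other treated and −0.31 and −0.11 on the other control arrays. The 9 spindle motors and microtubule-binding members were at −0.17 on treated 5 and 0.38 on control 5. The 6 members of the cyclin-CDK1 engine were at −0.15 and 0.20. The other member roles lay between −0.20 and −0.14 on treated 5 and between 0.19 and 0.38 on control 5. These arrays were singled out from these same values, and no test was made.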
